A study of Homo sapiens with 6 samples.

Results

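Nectins and nectin-like molecules are cell surface proteins of the immunoglobulin superfamily, and 10 genes of this family and its main adaptor were followed in SUM159 cells with stable overexpression of miR-1287-5p. They are CADM1, CADM2, CADM3 and CADM4, NECTIN1, NECTIN2, NECTIN3 and NECTIN4, PVR, and AFDN, which encodes the nectin adaptor afadin. CADM3 and CADM1 were chosen because of their high and low values in overexpressing cells on these same arrays, while the others were taken as their relatives and binding partners. Of the 10 genes, 8 had a transcript cluster (the array's unit for 1 transcribed locus) with a gene symbol here, against 14884 genes in all. CADM1 and CADM3 had a pair of clusters each, which gives 10 clusters among the 53617 measured. CADM2 and AFDN are not analysed here.

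SUM159, an established line of triple negative breast cancer (BC), was stably transduced with lentivirus and selected with puromycin, either with a GFP virus carrying miR-1287-5p (miR-1287-5p overexpression) or with the empty GFP control virus (control). Each group had 3 biological replicates, each measured on its own Affymetrix Human Gene 2.0 ST array. The sources do not say whether the replicates of a group came from separate transductions, so p-values measure the spread between these samples. If each group was a single transduced population, an effect of miR-1287-5p and a difference between the populations cannot be told apart here. The level of miR-1287-5p itself is not analysed here. The array values are log2 signals after RMA, the authors' background correction and normalization, with array medians between 4.33 and 4.42.

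Members of this family join neighbouring cells without calcium, by binding to the same or to another member on the facing cell. The cytoplasmic tail of a nectin binds afadin, which links it to actin at adherens junctions, whereas CADM proteins bind scaffold proteins of the protein 4.1 and membrane-associated guanylate kinase families. CADM1 pairs with itself, with CADM3 and with NECTIN3. NECTIN3 in turn pairs with NECTIN1, NECTIN2 and PVR. Several members are also read by receptors of T cells and natural killer cells, as PVR and NECTIN2 are by CD226 and TIGIT, and CADM1 by CRTAM.

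The overexpressed arm is shown here because its seed, bases 2 to 8 (in capitals), sets which transcripts a miRNA can pair with, and the opposite arm of the same hairpin is given for comparison.
hsa-miR-1287-5p: uGCUGGAUcagugguucgaguc
hsa-miR-1287-3p: cUCUAGCCacagaugcagugau
Both arms have 22 bases and lie on the minus strand of chromosome 10, at chr10:98395271-98395292 and chr10:98395232-98395253 (RefSeq, GRCh38.p14). None of the other mature human miRNAs among the 2370 names of the RefSeq table shared either seed (0 for each arm). The 3′ UTRs of the members were not searched for seed matches here.

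CADM3, a nectin-like molecule known mainly from neurons, was higher in the overexpressing cells in both of its clusters. Its leading cluster (16672412, the one with the highest mean) had log2 signals of 8.72, 8.49 and 8.49 in control replicates 1, 2 and 3. In overexpression replicates 1, 2 and 3 the signals were 9.49, 9.73 and 9.60. Every overexpression array lay above every control array, with a gap of 0.77 between the groups, and the spread within a group was no more than 0.24. The mean was 8.57 ± 0.13 in control and 9.61 ± 0.12 in overexpressing cells (SD, n = 3 each), and the difference of 1.04 (standard error 0.14) is 2.06-fold. These values chose the gene and are given as a description without a test.

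The further cluster of CADM3 (16695135) had log2 signals of 6.43, 6.34 and 6.68 in control replicates 1, 2 and 3, and of 7.14, 6.95 and 7.35 in the overexpression replicates. The groups were again apart, and the log2 fold change was 0.66 (standard error 0.16), a smaller difference than in the leading cluster. In the order of their ID numbers, clusters of genes on one strand follow each other, and the 2 CADM3 clusters fall into different runs. The 16 nearest clusters of the leading one with a strand in RefSeq belong to genes on the plus strand, where CADM3 lies. The 18 nearest to the further one all belong to genes on the minus strand. The strand of the further cluster is not stated, and whether it measured CADM3 mRNA or RNA of the opposite strand was not tested. The neural markers SYT1, STMN2 and GFAP were measured beside CADM3, and their summed log2 level was 6.08 to 6.29 in control and 5.93 to 6.16 in overexpressing cells, so these ranges overlapped. The median of their log2 fold changes was −0.10, and 0 of the 3 passed limma's test, adjusted or not.

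CADM1, known as a tumor suppressor that is silenced in lung and other cancers, was lower in the overexpressing cells. Its leading cluster (16744616) had log2 signals of 4.36, 4.47 and 4.08 in control replicates 1, 2 and 3. In overexpression replicates 1, 2 and 3 they were 3.60, 3.39 and 3.36. All overexpression arrays lay below all control arrays, with a gap of 0.48. The mean was 4.30 ± 0.20 in control and 3.45 ± 0.13 in overexpressing cells (SD, n = 3 each), and the difference of −0.85 (standard error 0.15) is a 1.81-fold lower level. A lower level in every cell and a loss in part of the transduced cells cannot be told apart in such bulk RNA, nor can the like for CADM3. The gene is on the list of downregulated mRNAs that the study selected on these arrays, so this value is a description without a test.

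The further cluster of CADM1 (16731526) had log2 signals of 4.16, 4.45 and 4.07 in control and of 3.27, 2.58 and 2.72 in overexpression replicates 1, 2 and 3. Here the log2 fold change was −1.37 (standard error 0.21), larger than in the leading cluster, and the groups did not overlap. Both clusters were dim. Their mean signals lay at percentiles 41.1 and 34.7 of all transcript clusters, below the median of 4.37 in either group mean, where background limits how far a fold change can be read. The leading cluster of CADM1 lies in a run of clusters for minus-strand genes (14 of the 14 nearest with a strand) and the further one mostly among plus-strand genes (10 of 12). As for CADM3, which RNA strand the further cluster measured was not tested.

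**Figure D1:**
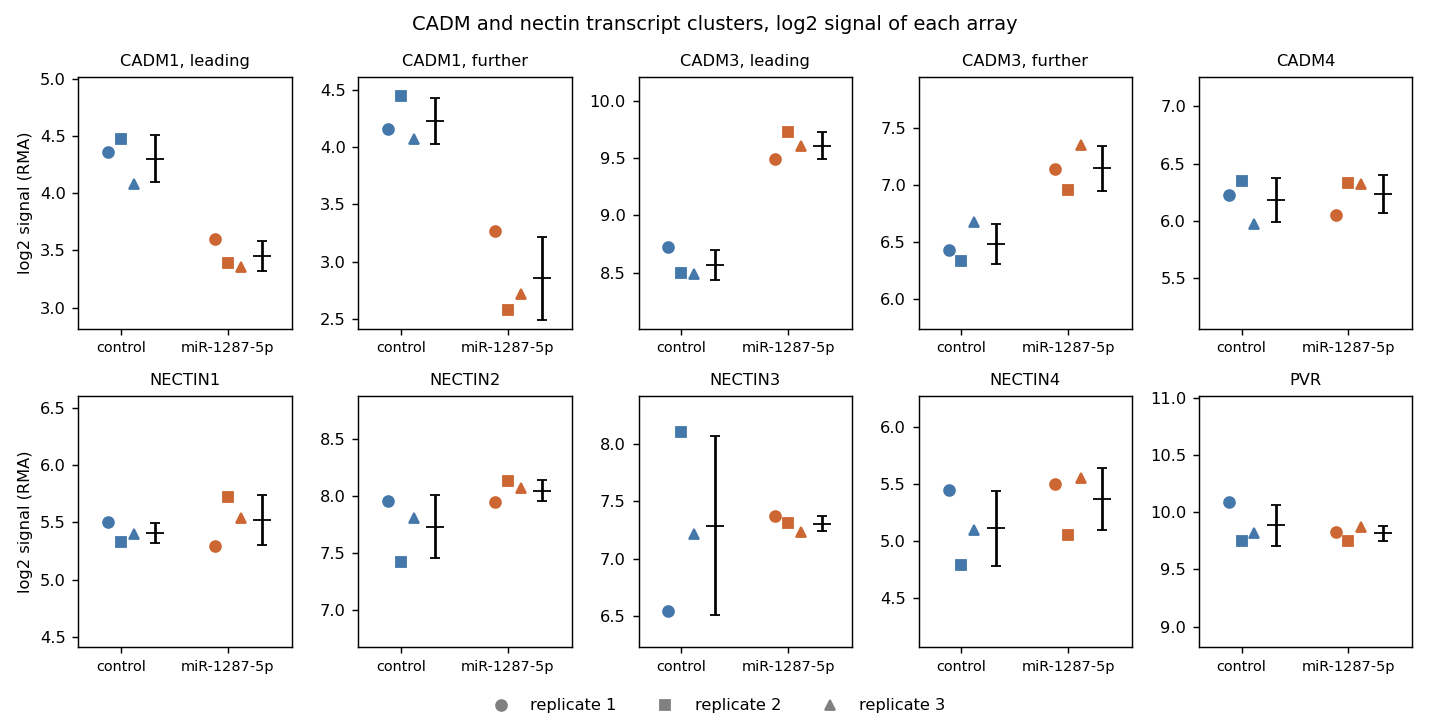
Log2 signal (RMA, vertical axis) of each of the 10 transcript clusters in the 3 control and 3 miR-1287-5p overexpression arrays, with symbols for the replicate number and the mean ± SD in black. Every panel spans the same height. The groups are apart in the 4 clusters of CADM1 and CADM3 and overlap in the other 6 panels, and the control arrays of NECTIN3 spread over 1.56.

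CADM4, the remaining measured CADM gene, is known for the contact between Schwann cells and axons. It had log2 signals of 6.23, 6.34 and 5.97 in control and of 6.05, 6.33 and 6.32 in overexpression replicates 1, 2 and 3, and the groups overlapped almost entirely. The log2 fold change was 0.05, with a 95% interval from −0.31 to 0.42 (adjusted p = 0.955 from limma's test over all 53617 clusters). On the linear scale this interval runs from 0.805 to 1.34 times the control.

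NECTIN2, a ligand of lymphocyte receptors, had the largest log2 fold change among the nectins. Its log2 signals were 7.95, 7.42 and 7.81 in control and 7.94, 8.13 and 8.06 in overexpression replicates 1, 2 and 3. Control replicate 1 lay just above overexpression replicate 1, so the groups touched. The log2 fold change was 0.32 (95% interval −0.08 to 0.71, adjusted p = 0.871 from limma's test).
NECTIN4, known as the epithelial receptor of measles virus and as an antibody target in carcinomas, had log2 signals of 5.44, 4.79 and 5.09 in control replicates 1, 2 and 3. In the overexpression replicates they were 5.50, 5.05 and 5.55. The lowest overexpression array lay below the second highest control array, and the log2 fold change of 0.26 had a 95% interval from −0.25 to 0.76 (adjusted p = 0.877 from limma's test).
NECTIN1, an entry receptor of herpes simplex virus, had log2 signals of 5.50, 5.33 and 5.40 in control and of 5.29, 5.72 and 5.54 in overexpression replicates 1, 2 and 3. The overexpression arrays lay on both sides of the controls, and the log2 fold change was 0.11 (95% interval −0.25 to 0.46, adjusted p = 0.905 from limma's test).

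NECTIN3, the preferred partner of NECTIN1 and NECTIN2 on the facing cell, had the widest spread of the family. Its log2 signals were 6.54, 8.10 and 7.21 in control replicates 1, 2 and 3, and 7.37, 7.31 and 7.23 in overexpression replicates 1, 2 and 3. The control arrays thus lay on both sides of the overexpression arrays, which spanned only 0.14. The log2 fold change was 0.02, with a 95% interval from −0.81 to 0.85 (limma adjusted p = 0.991). The value was −0.35 without control replicate 1 and 0.43 without control replicate 2, so its direction rested on single control arrays. The main axis of variation between the arrays (principal component 1 of the clusters brighter than the median, 55.7% of the variance) did not part the groups. Control replicates 1, 3 and 2 lay there at −41.5, 23.4 and 60.6, and overexpression replicates 3, 2 and 1 at −36.0, −14.6 and 8.10. NECTIN3 followed this order within each group, as 7.89% of all clusters did. NECTIN1, NECTIN2, NECTIN4 and PVR had the reverse order among the control arrays (30.0% of all clusters) but not among the overexpression arrays. The part of the component in these values was not tested.

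PVR, the poliovirus receptor (CD155), is a ligand of CD226, TIGIT and CD96. Its log2 signals were 10.1, 9.74 and 9.82 in control and 9.82, 9.75 and 9.87 in overexpression replicates 1, 2 and 3. Overexpression arrays fell inside the range of the controls. The log2 fold change was −0.07 (95% interval −0.40 to 0.26, adjusted p = 0.933 from limma's test).

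Of the 6 measured members other than CADM1 and CADM3, 0 changed at an adjusted p under 0.05 by limma, where 0.00373% of all clusters did. None of the 6 had an unadjusted p under 0.05 (0 of 6, against 5.4% of all clusters), and by the methods' t-test 0 passed after adjustment. In 0 of the 6 were the groups apart, against 11.2% of all clusters (4.33% with overexpression lower and 6.88% with it higher), and 0 reached 1.5-fold at an unadjusted p under 0.05, against 1.7%. Their log2 fold changes had a median of 0.08, beside 0.03 over all clusters, with 5 above 0 and 1 below. A two-sided exact permutation test, which cannot give a p below 0.1 for 3 arrays against 3, gave p between 0.2 and 0.9 for single genes. Limma's 95% intervals, which draw each variance toward that of all clusters, excluded a 2-fold difference in either direction for all 6 genes. Those of CADM4, NECTIN1 and PVR also excluded 1.5-fold. For NECTIN3 the exclusion of 2-fold rests on that moderated variance, since its control arrays spread over 1.56 and its own replicate SD was 0.56. CADM1 and CADM3 passed the 1.5-fold criterion in both of their clusters (background 1.01% for lower and 0.694% for higher), a count that the choice of these genes fixed.

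**Figure D2:**
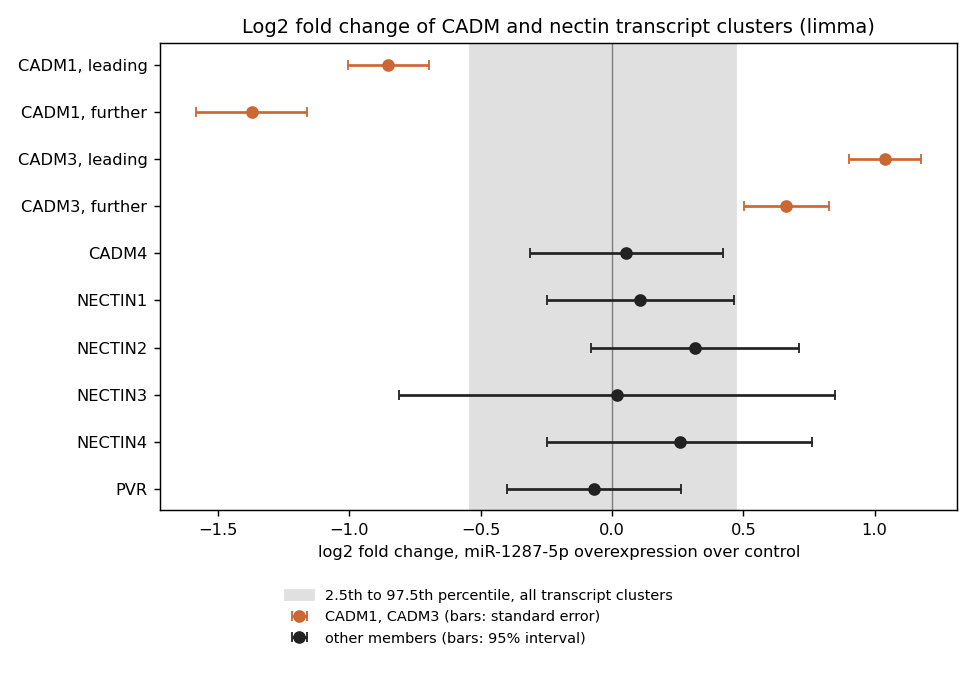
Log2 fold change of miR-1287-5p overexpression over control (horizontal axis) for each transcript cluster of the family. Bars are the standard error for CADM1 and CADM3, which were chosen for their change, and the 95% interval from limma for the others, and the grey band runs from −0.54 to 0.47, the central 95% of all transcript clusters. The 6 other genes lie between −0.07 and 0.32, inside the band.

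Among the binding partners of CADM1 (−0.85), NECTIN3 had an estimate of 0.02, but its 95% interval of −0.81 to 0.85 ended near the CADM1 value. CRTAM, the lymphocyte receptor of CADM1, had a log2 fold change of 0.13 (95% interval −0.22 to 0.48, adjusted p = 0.890 from limma's test). It lay at percentile 10.8 of signal, where background limits how far a fold change can be read. CADM3 ran opposite to CADM1, which the choice of both genes fixed. The other lymphocyte receptors measured here, TIGIT (0.22), CD96 (0.11) and CD226 (−0.05), lay below the median signal of the arrays, as did CRTAM, and 0 of the 4 passed. The leukocyte markers CD14, CD2, LYZ and NKG7, the 4 of 8 with a symbol here, had a summed log2 level of 6.19 to 6.34 in control and 6.39 to 6.76 in overexpressing cells. These ranges did not overlap, but gene by gene the groups were apart only in CD14 (1 of 4, 25%, against 11.2% of all clusters). NKG7, the brightest and the only 1 of them above the median signal, had overlapping groups. The part of these markers in the values of the lymphocyte receptors was not tested.

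Beyond the family, 6 lists of 87 genes were followed, of which 46 had a cluster with a symbol here and are called measured. Of these, 22 belong to 4 lists of partners inside the cell or in the same membrane, 4 are the lymphocyte receptors, and 20 are other adhesion molecules of the immunoglobulin superfamily, which are relatives rather than partners. At an adjusted p under 0.05, 0 of the 46 changed by limma and 0 by the methods' t-test, where 0.00373% and 0% of all clusters did, so these counts tell nothing particular about the lists. At an unadjusted p under 0.05, limma had 3 of the 22 partners (13.6%, against 5.4% of all clusters), 0 of the 4 receptors and 1 of the 20 relatives. The count of 3 was 6 without control replicate 1, and 1 each without control replicates 2 and 3, while over all clusters it was 2895, 6892, 2316 and 1959. By the methods' t-test it was 4, where 3070 clusters had such a p. The groups were apart in 5 of the 22 partners (22.7%, against 11.2% of all clusters), in 0 of the 4 receptors and in 2 of the 20 relatives. Both partner counts, the 3 and the 5, include PATJ, which is on the study's own list of downregulated mRNAs from these arrays. The lists were also chosen with earlier results of these data known, so these shares are a description.

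Among 8 measured cytoplasmic partners of afadin and nectins, 6 had a log2 fold change below 0, against 44.5% of all clusters, with a list median of −0.30 beside 0.03 over all clusters. The polarity scaffold PATJ had log2 signals of 5.78, 6.04 and 5.71 in control and of 5.49, 5.08 and 5.08 in overexpression replicates 1, 2 and 3. The groups were apart by −0.62 (95% interval −1.02 to −0.23, limma adjusted p = 0.817). PATJ is on the study's own list from these arrays under an older name, so its direction is not independent evidence.
Vinculin (VCL), which ties adhesion complexes to actin, had 9.80, 9.88 and 9.82 in control and 9.50, 9.31 and 9.56 in overexpression replicates 1, 2 and 3. The arrays of VCL were thus apart, with a log2 fold change of −0.38 (95% interval −0.68 to −0.08, adjusted p = 0.871 from limma's test). The PDZ scaffolds TJP1 (−0.32) and MPDZ (−0.63) had overlapping groups, and MPDZ ran from 5.29 to 7.04 within the control arrays alone. In this list MPDZ and LMO7 followed the order of the arrays on principal component 1 within both groups, and PICK1 and ZYX the reverse order. The polarity protein PARD3, which binds nectins, had 8.48 ± 0.028 in control and 8.37 ± 0.054 in overexpressing cells (SD, n = 3 each), so its groups were apart by a narrow margin, at −0.11 (limma adjusted p = 0.884).

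Among 8 measured cytoplasmic partners of CADM proteins, 5 lay below 0, with a median of −0.13. Of the 8, CASK, EPB41L2, EPB41L3 and LIN7C followed the order of the arrays on principal component 1 within both groups, and LIN7B the reverse order, against 7.89% and 8.12% of all clusters. The part of the component in the list's values was not tested. CASK, a guanylate kinase scaffold bound by CADM tails, had log2 signals of 7.02, 7.74 and 7.33 in control and of 7.05, 6.89 and 6.56 in overexpression replicates 1, 2 and 3. One overexpression array lay above the lowest control array, and the log2 fold change was −0.53 (95% interval −1.04 to −0.02, adjusted p = 0.871 from limma's test). The protein 4.1 family members EPB41L2 (−0.20) and EPB41L3 (−0.16), and the scaffold LIN7A (−0.09), had overlapping groups.
Of the cadherin and catenin list 1 of 11 genes had a cluster with a symbol here, plakoglobin (JUP), at −0.17 (limma adjusted p = 0.885). The other 10 had no symbol here and are not analysed, which does not mean that the array lacks them. Of 5 measured membrane partners, the groups were apart in 2 (40%, against 11.2% of all clusters). These were the growth factor receptors KDR (0.34) and ERBB3 (0.23), with all overexpression arrays above all controls, while the groups of FGFR1 (0.17) and PRLR (−0.10) overlapped. ERBB3 lay below the median signal. None of these 5 passed (0, adjusted p at least 0.871 from limma's test).

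In the wider immunoglobulin superfamily of adhesion molecules 20 genes were measured, 11 below 0 and 9 above, with a median of −0.03. JAM3, a junctional adhesion molecule, had log2 signals of 6.08, 6.05 and 6.16 in control and of 5.74, 5.58 and 5.59 in overexpression replicates 1, 2 and 3. Its groups were apart, with a log2 fold change of −0.46 (95% interval −0.75 to −0.17, adjusted p = 0.817 from limma's test). PECAM1 (−0.40), VSIR (0.33) and NFASC (0.30) followed by size of p, and the groups of NFASC did not overlap. The groups were apart in 2 of the 20 genes (10%), near the 11.2% of all clusters.

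**Figure D3:**
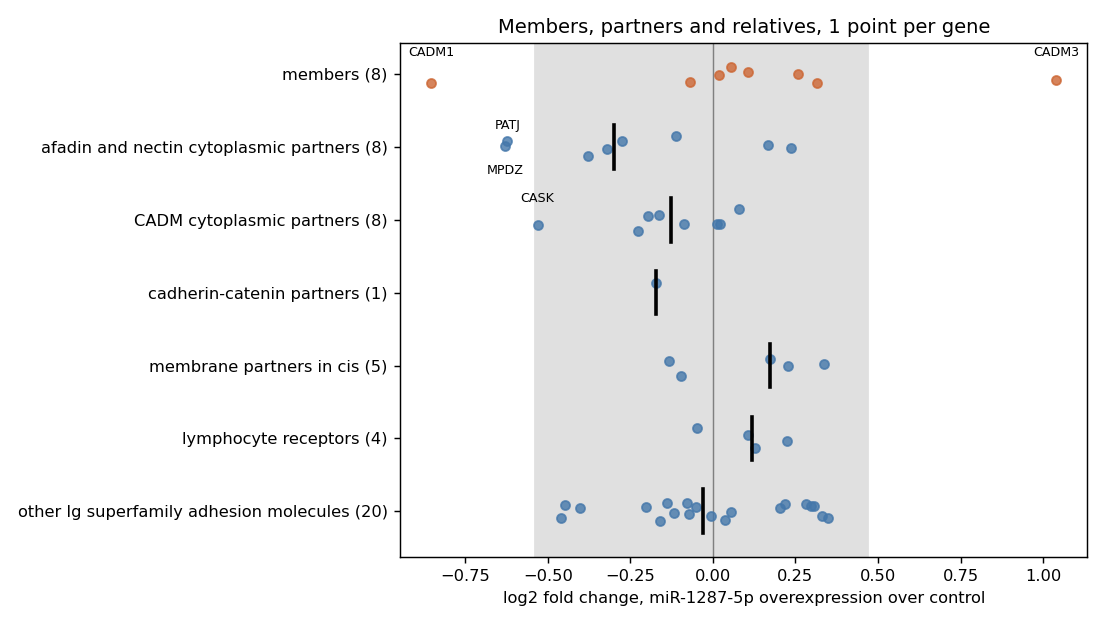
Log2 fold change (horizontal axis) of the 8 measured members and of the measured genes of the 6 lists of partners, lymphocyte receptors and relatives, 1 point per gene and the list median as a black line, with the number of genes in brackets. The grey band is the central 95% of all transcript clusters. CADM3 lies at 1.04 and CADM1 at −0.85, far out because these genes were chosen for their change. The 22 partners inside the cell or in the same membrane run from −0.63 to 0.34, and the 20 relatives from −0.46 to 0.35.

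The members lie on few chromosomes. In RefSeq (GRCh38.p14) CADM3 and NECTIN4 are on chromosome 1 with 42 protein-coding genes between them, CADM1 and NECTIN1 on chromosome 11 with 67 between them, and CADM2 and NECTIN3 on chromosome 3 with 74. PVR and NECTIN2 on chromosome 19 are parted by 5 genes, and CADM4 is on the same chromosome. CADM3 and CADM1 were chosen for their change and the genes next to them were not, so the sizes are given as a description only. The nearest 10 measured genes on each side of CADM3 had log2 fold changes from −0.35 to 0.47, with a median of 0.09, and the groups were apart in 2 of 20 (10%, near the 11.2% of all clusters). Around CADM1 the 20 neighbours ran from −0.72 to 0.46, with a median of −0.02, and the groups were apart in 3 of 20 (15%). Its nearest measured neighbour on one side, the RNA-binding protein gene RBM7, had the −0.72, with overlapping groups. Genes without a symbol here were passed over in this order, so genes that lie nearer can be missing from it.

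**Figure D4:**
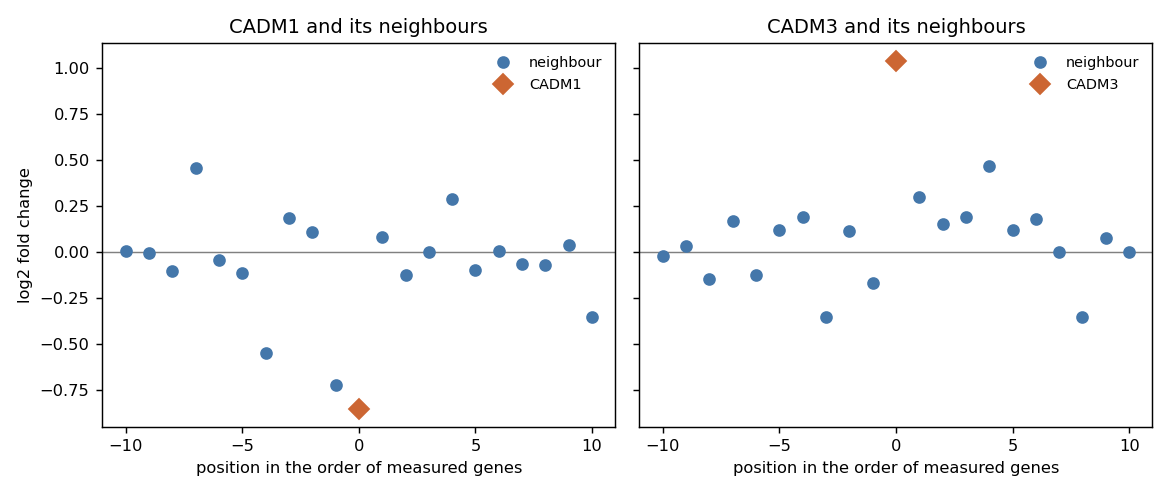
Log2 fold change (vertical axis) of CADM1 and CADM3 and of their 10 nearest measured genes on each side, by position in gene order (horizontal axis). CADM1 at −0.85 and CADM3 at 1.04 were chosen for their change and their 20 neighbours each were not, so the distance between them is a description only.

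The noncoding NECTIN3-AS1 had a log2 fold change of −0.15 (95% interval −0.56 to 0.25), and CADM2-AS2, of the locus of a CADM gene not analysed here, 0.15 (95% interval −0.18 to 0.47), with overlapping groups in both. RefSeq promoter windows around the transcription start, of 1 length for all genes, were matched for 7 of the 10 members. They held between 10 (NECTIN4) and 49 (AFDN) CG dinucleotides, a motif that reads the same on both strands. CADM3 held 23, and the median over 27305 promoters was 14, with 95.8% holding at least 1.

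Over the 6 arrays, the brighter genes whose pattern was most like that of CADM3 were ANPEP (Pearson's r = 0.996), NUP210 (0.994), TMSB10 (0.994), SPRY2 (0.991) and CHCHD5 (0.990). For CADM1 they were RPP14 (0.997), IL20RB (0.994), PSTPIP2 (0.991), ZNF695 (0.984) and DAZAP2 (0.983). These are descriptions over 6 arrays that share the group difference, among 10348 genes, of which 53 had an r over 0.95 with CADM3 and 46 with CADM1. Of these 10 genes, NUP210 (0.92) and PSTPIP2 (−0.71) had the widest log2 fold changes, while TMSB10 differed by 0.03.

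The labelled cell line was set against marker genes. The mesenchymal markers VIM, FN1, AXL, MSN and CD44 all lay at or above percentile 94.3 of signal, and the hormone receptor genes ESR1 and PGR at percentiles 47.3 and 36.4. The luminal genes GATA3, KRT8 and FOXA1 lay higher, at percentiles 78.7, 75.3 and 50.8, and ERBB2 is not analysed here. None of the marker lists held a gene that passed (0 by limma, with 1 leukocyte marker, CD14 with a log2 fold change of 0.46, at an unadjusted p under 0.05).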

How the data were processed

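Per the methods and labels, total RNA of SUM159 cells was amplified with the WT PLUS kit. The deposited values are log2 signals that the authors obtained with RMA (Partek 6.6): probe background was corrected, arrays were quantile normalized together, and median polish on the log2 scale gave 1 value per transcript cluster. A filtering step is named but not described. Quantile normalization makes the arrays' distributions alike, so a shift of most genes would not be visible. Gene symbols came from the platform's table (16098 clusters with 1 symbol, 0 with several, 37519 unnamed here). The cluster with the highest mean stood for a gene.

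The groups were compared by two-sided moderated tests (limma 3.58.1, R 4.3.3), with p-values adjusted by Benjamini-Hochberg over the 53617 clusters. The procedure was tested on simulated data with independent noise in each cluster and array. Such noise lacks the main axis of variation that clusters of these arrays share, so the simulation does not cover its effect. The 1.5-fold criterion at an unadjusted p under 0.05 follows the study's list of downregulated mRNAs. The paper does not say whether the p of that list was adjusted, and its methods name a larger fold change for target prediction. With limma's p the calls here need not match that list. The methods name an unpaired t-test, which was run as an alternative, beside a variance trend with intensity, a replicate block, centring of array medians, cyclic loess, a filter on dim clusters, only clusters with a symbol, array weights, the mean of a gene's clusters, and each array left out in turn. The 95% intervals are limma's, per cluster. Summed levels add the linear signals of a list within an array before log2. Members, lists and the rule for named genes (all members, and per list up to 4 genes with the smallest p) were chosen with earlier results of these data known. PARD3, the genes named for the order of their arrays, and those named for their neighbourhood were named outside that rule after their values were seen.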

Additional observations from a re-analysis of the deposited data

How the results depend on the processing

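CADM3 and CADM1 kept their direction in all 15 and 14 alternatives that gave a value. CADM1 had no value with dim transcript clusters left out, because its clusters lie under that limit. With the mean of all transcript clusters of a symbol the log2 fold changes were 0.85 for CADM3 and −1.11 for CADM1, and with array weights −0.66 for CADM1. Those weights put 7.91 on control replicate 3 against 0.366 and 0.514 on control replicates 1 and 2. With 1 array left out in turn, CADM3 lay between 0.98 and 1.12 and CADM1 between −0.97 and −0.77. The other members had 0 calls in the 15 alternatives, as did the 6 lists, and their directions held except that NECTIN3 was −0.0059 with array medians centred and that leaving out 1 array gave ranges across 0 for NECTIN3 (−0.35 to 0.43), CADM4 (−0.050 to 0.15) and PVR (−0.14 to 0.033). With the replicate number as a block (replicate block) the log2 fold changes are by construction the same, 1.04 for CADM3 and −0.85 for CADM1, and 0 transcript clusters of the array passed, against 2. Arrays with the same number did not deviate together (r = −0.47, −0.0020 and −0.081), so the numbers were not taken as pairs. Adjusted p of the 6 other members ran from 0.248 (NECTIN2 with array weights) to 0.999 over the alternatives. The 4 genes of the 6 lists at an unadjusted p under 0.05 became 14 with array weights, 11 without control replicate 1, and 2 each without control replicate 2 and with the replicate block. Over all 53617 clusters the count moved likewise, from 2895 to 11845, 6892, 2316 and 2161 in these settings, so the shifts are not particular to the lists. Among all transcript clusters, 2 passed the adjusted threshold, 25 with array weights, 5 without dim clusters, and 0 with any array left out or with the methods' t-test. The causes were not tested. The dim signal of CADM1 and the number of arrays limit the precision.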
